A study of Mus musculus with 20 samples.

Results

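Activated follicular helper T (TFH) cells were the 11953 of 28192 splenic T cells that the authors' clustering had placed in the cluster they named activated TFH, and they were present in all 10 mice. The authors' own cluster name of each cell was used to choose them, and no cell was added or removed. The cells came from bone marrow chimeras on a C57BL/6 background, made by irradiating wild-type (WT) CD45.1 recipients. The 5 WT chimeras (mice 11, 12, 14, 23 and 36) and the 5 564Igi chimeras (mice 13, 17, 21, 24 and 34) each gave 1 library of gene expression and 1 library of T cell receptors (TCRs). WT chimeras received WT marrow and were immunised with NP-OVA in alum at week 6. The 564Igi chimeras received a mixture of WT marrow and marrow from mice that carry the knocked-in heavy and light chains of a B cell receptor for the body's own ribonuclear complexes, and were not immunised. The labels give week 10 for the analysis of both, while the study's scheme also shows a booster of NP-OVA in the WT chimeras and a later analysis, and which of these holds for these libraries was not settled here. The sort took CD3+ CD4+ cells that carried CXCR5, PD-1 and CD45.2 and lacked CD45.1, and since the study's scheme gives the 564Igi marrow both CD45.1 and CD45.2, this gate is designed to keep cells of WT donor marrow in both conditions. The purity of the gate was not checked here. Immunisation and the autoreactive B cells cannot be told apart here, since no group had only one of them.

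TFH cells are CD4+ T cells that enter B cell follicles through CXCR5 and help germinal centre B cells through contact ligands such as CD40L and through cytokines such as IL-21 and IL-4. Follicular regulatory T (TFR) cells share the CXCR5 and PD-1 surface proteins but express *Foxp3* and restrain the response. TFH cells continue to receive antigen signals through the TCR, and cells that leave the germinal centre can lower their follicular programme and take up genes of circulation and memory.

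The activated cluster held between 32.6% (WT mouse 12) and 49.6% (564Igi mouse 24) of a mouse's cells, from 556 cells in 564Igi mouse 24 to 1686 in WT mouse 36. In WT chimeras its share was 41.1% ± 5.34 (SD, n = 5 mice) and in 564Igi chimeras 44.6% ± 6.10 (n = 5), a difference within the spread between mice (exact permutation test over mice, two-sided, p = 0.365). The median activated cell had between 2753.5 (564Igi mouse 24) and 4504 (564Igi mouse 17) UMIs per mouse and between 1341 and 1854 genes, and the median UMI count did not differ between conditions beyond that spread (exact permutation p = 0.817). Of the 28192 cells, 988 carried a barcode also found in another library, 413 of them activated. Of the lists of B cell and myeloid genes, some members were rare in activated cells and others were common, and all 5 measured erythroid genes were found in under 1%. *Ms4a1* and *Cd79a*, the B cell genes for CD20 and part of the B cell receptor complex, were among the 9 of 14 measured B cell genes found in under 1% of activated cells, and *Lyz2* and *Csf1r* of macrophages were below 1% too. In contrast *Cd74*, the invariant chain, was found in 11.9%, *Cd22* in 4.10%, and the myeloid-list genes *Ctss* and *Cst3* in 46.7% and 41.0%. *Cd3e*, a subunit of the TCR complex, was found in 99.5%.

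Of the 4 genes taken as markers of the cluster, *Tnfsf8* and *Cd4* separated it from the other cells, and *Pdcd1* and *Icos* did not. In this and all later comparisons a level is the mean over cells of log2 of the corrected count plus 1, and a difference between levels is on that log2 scale. *Tnfsf8*, which encodes the CD30 ligand, was found in 63.5% of activated cells against 30.6% of the other cells and 21% of TFR cells, and its level was higher by 0.63 ± 0.11 (SD, n = 10 mice) than in the other cells, in 10 of 10 mice. *Cd4*, the co-receptor for MHC class II, was found in 74.5% against 62.0% of cells and was higher by 0.29 ± 0.07 in 10 of 10 mice. *Pdcd1*, which encodes PD-1 and whose protein was used in the sort, was found in 75.8% against 75.3% of cells, and its level was higher in 5 mice and lower in the other 5. *Icos*, an inducible co-stimulator, was found in 61.7% against 67.3% of cells and its level was lower in activated cells in 9 of 10 mice, with a difference of -0.16 ± 0.09. Against the other cells together, the cluster was therefore marked by 2 of these genes and not by all 4. Against the other TFH clusters only, *Cd4* was higher by 0.11 ± 0.12 in 8 of 10 mice, and against Sostdc1 cells it differed by -0.04 ± 0.05, lower in 8 of 10 mice. *Sostdc1* TFH cells, which the authors named after a secreted inhibitor of Wnt signalling, had a higher level than activated cells of *Tnfsf8* (activated minus Sostdc1, -0.35 ± 0.15) and of *Pdcd1* (-0.51 ± 0.18), and in no mouse was the order turned.

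Against the other cells of the same mouse, activated cells had more of S100, galectin and cytoskeletal genes and less of genes that mark regulatory T cells. The clusters were made from these values, so these differences describe the cluster and carry no test. Among 5061 genes found in at least 10% of activated or of other cells, 35 were higher in all 10 mice by a mean of over 0.2, and 44 were lower in all 10 mice by over 0.2. The 15 largest positive differences ran from 0.84 ± 0.15 for *Ms4a4b*, a membrane protein of T cells, down to 0.33 ± 0.07 for *Ptpn11*, which encodes the phosphatase SHP-2. *S100a6*, a calcium-binding protein that the authors took as a marker when naming the cluster, was higher by 0.60 ± 0.24, and *Itgb1*, the integrin β1 chain, by 0.53 ± 0.21. *Tcf7*, the transcription factor TCF-1 that sustains TFH and memory T cells, was higher by 0.47 ± 0.10, *Thy1* by 0.45 ± 0.18 and *Lgals1*, which encodes galectin-1, by 0.41 ± 0.15. *Klf2*, a factor that promotes exit from the follicle, was higher by 0.40 ± 0.16 and was found in 31.1% against 12.9% of cells. *S100a11*, *Gpm6b*, *Slamf6*, *Cd40lg* and *Vim* followed, between 0.34 and 0.39. *Ly6a*, the surface protein Sca-1, was higher by 0.37 with a spread between mice of 0.34, and was the only one of the 15 that was not higher in every mouse (9 of 10).

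The 15 largest negative differences were led by *Tnfrsf4* (OX40, -0.72 ± 0.13), *Ikzf2* (Helios, -0.67 ± 0.13), *Cd74* (-0.66 ± 0.12), *Tnfrsf9* (4-1BB, -0.64 ± 0.07), *Tigit* (-0.58 ± 0.08) and *Foxp3* (-0.55 ± 0.07). All 15 were lower in 10 of 10 mice. Among activated cells 7.20% held *Foxp3*, the defining factor of regulatory cells, against 42.0% of all other cells and 56.0% of TFR cells. TFR cells made up most of the cells outside the activated cluster, and 42 of the 44 genes lower against all other cells were also lower than in TFR cells in every mouse.

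**Figure D1:**
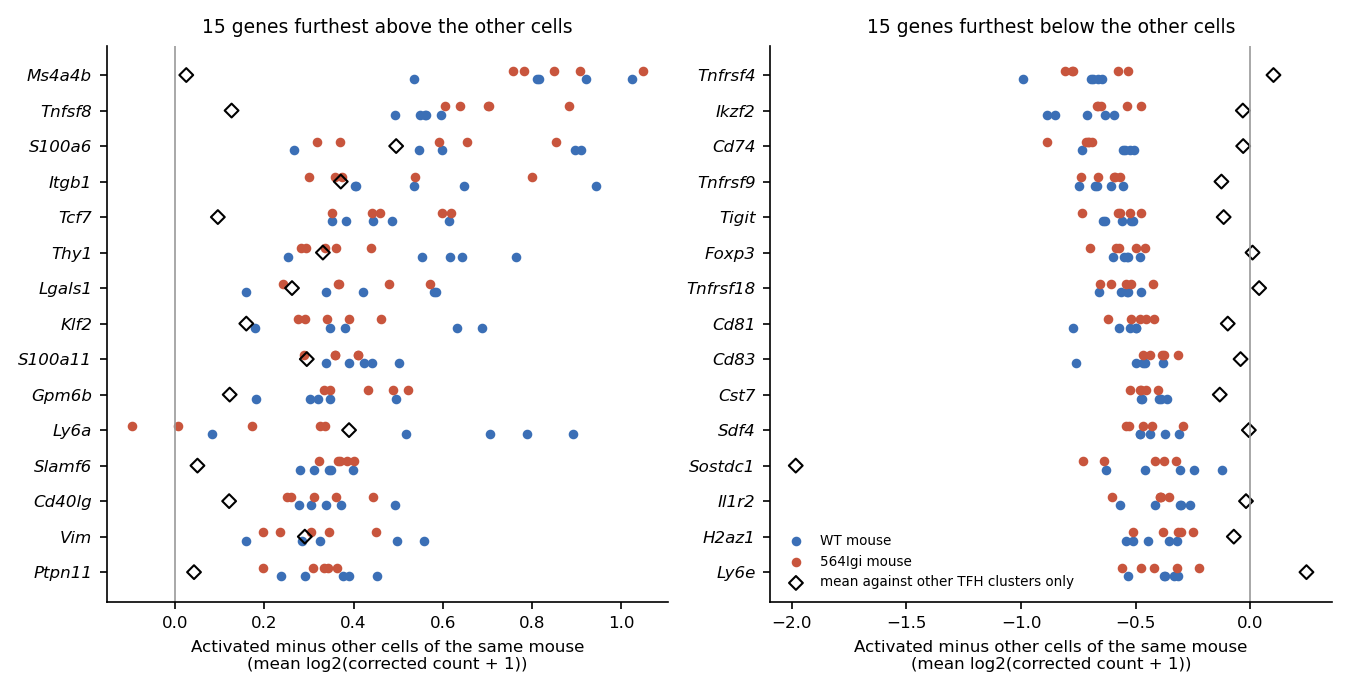
Difference between activated and other cells of the same mouse (x axis, mean log2 of corrected count plus 1) for the 15 genes furthest above and the 15 furthest below. Points are the 5 WT (blue) and 5 564Igi (red) mice, and open diamonds are the mean difference against the other TFH clusters only, where *Ms4a4b* falls to 0.03 and *Foxp3* to 0.01.

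When TFR cells were set aside, a smaller programme remained. Against the other TFH clusters together (Sostdc1, central memory, effector and interferon-stimulated cells), 12 genes were higher and 5 lower in every mouse by over 0.2, and 6 of the 12 and 2 of the 5 were among those found against all other cells. Of all genes described, 1.43% were higher and 3.46% lower than in the other TFH clusters in every mouse. *Ms4a4b* differed by 0.03 ± 0.16, *Tnfsf8* by 0.13 ± 0.15, *Tcf7* by 0.10 ± 0.09 and *Cd40lg* by 0.12 ± 0.11. *S100a6* was still higher by 0.50 ± 0.29, *Ly6a* by 0.39 ± 0.23, *Itgb1* by 0.37 ± 0.23, *Vim* by 0.29 ± 0.14 and *Lgals1* by 0.26 ± 0.18, each in 10 of 10 mice. These differences pool unlike clusters. *S100a6* differed by 1.79 ± 0.26 from central memory cells and by 0.29 ± 0.63 from effector cells. *Ly6a* differed by -1.27 ± 0.27 from interferon-stimulated cells, lower in 10 of 10 mice. *Izumo1r*, the folate receptor 4 of TFH and regulatory cells, was higher than in the other TFH clusters by 0.30 ± 0.11 and differed from TFR cells by -0.53 ± 0.17, lower in 10 of 10, so that its direction depended on the cells compared. The 5 lower genes were *Sostdc1* itself (-1.98 ± 0.47), the effector chemokine *Ccl5* (-0.82 ± 0.54), the cytotoxic granule gene *Nkg7* (-0.52 ± 0.27), *Marcksl1* (-0.22 ± 0.09) and *Itm2a* (-0.22 ± 0.13), each lower in 10 of 10 mice. The authors used *Sostdc1* and *Ccl5* to name clusters among the cells compared, so their direction follows from that choice.

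Of the 35 genes higher against all other cells, activated cells had the highest mean level of all 6 clusters for 8. *S100a6*, *Itgb1*, *Lgals1*, *Rflnb* and *Cd5*, an inhibitor of TCR signalling, were among them. This is a rank of means, and some leads were narrow. *S100a6* differed from interferon-stimulated cells by 0.04 ± 0.23, higher in 5 of 10 mice. *Lgals1* differed from Sostdc1 cells by 0.04 ± 0.13, higher in 7 of 10. *Itgb1* was higher than in Sostdc1 cells by 0.23 ± 0.15, in 10 of 10 mice. Of the 44 lower genes, activated cells were lowest for 3. For most genes activated cells lay between the other clusters, as the plot of levels by cluster shows.

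**Figure D2:**
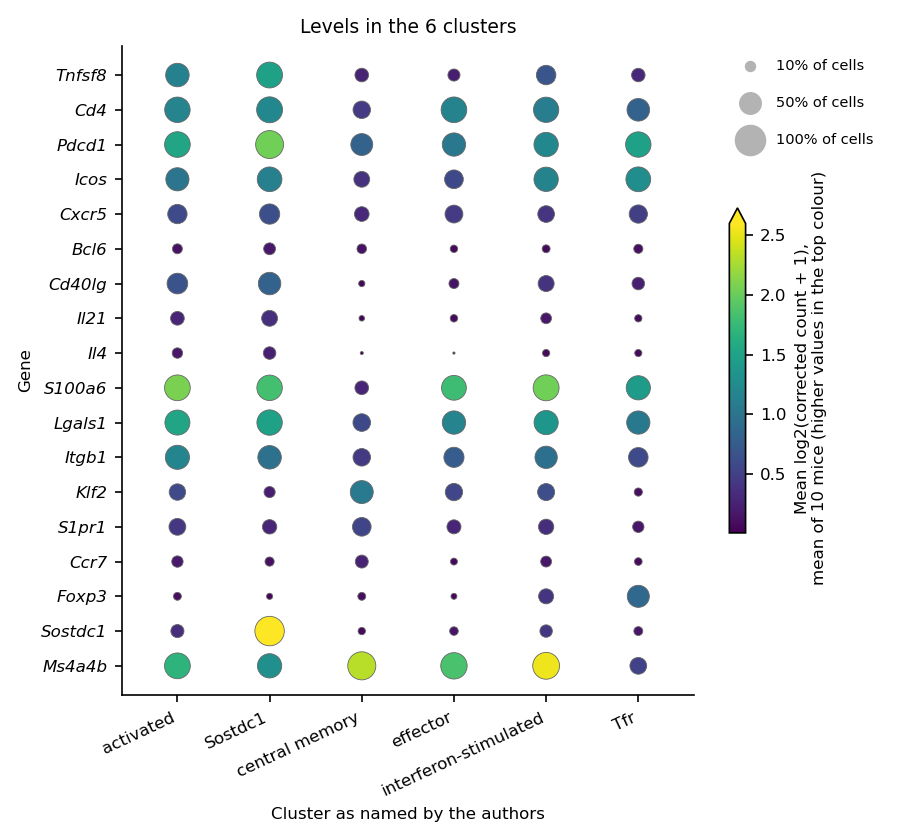
Mean level (colour) and percent of cells in which the gene was found (circle size) for 18 genes (rows) in the 6 clusters the authors named (columns), averaged over 10 mice. Activated cells come second to Sostdc1 cells for *Tnfsf8*, *Pdcd1*, *Cd40lg*, *Il21* and *Il4*, behind 2 other clusters for *Klf2*, and first for *S100a6*, *Lgals1* and *Itgb1*.

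*Cd40lg*, *Il21* and *Il4* were found in fewer activated than Sostdc1 cells and in more activated than TFR cells. Of 15 genes of that list found in at least 1% of cells, 7 were higher than in the other cells in all 10 mice and 2 were lower, beside 5.32% and 11.7% of all 10120 genes described. *Cd40lg*, the ligand through which T cells license B cells, was found in 49.2% of activated, 58.1% of Sostdc1 and 18.2% of TFR cells. *Il21*, the cytokine that drives germinal centre B cells, was found in 21.7%, 29.1% and 6.09% of cells of these clusters, and *Il4*, which directs class switching, in 12.6%, 18.2% and 5.91%. The *Il21* and *Cd40lg* levels were below those of Sostdc1 cells in all 10 mice. *Ifng* was found in 13.5% of activated and 2.69% of TFR cells. *Ltb* and *Tgfb1* were the lower members. Free RNA was not removed, and TFR cells can express some of these genes themselves. *Sox4*, which 69.4% of central memory cells held, was found in 0.454% of activated and 0.445% of TFR cells.

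Of 18 receptors and co-stimulators of TFH cells, 9 were higher and 3 lower than in the other cells in every mouse, where 5.32% of all genes were higher and 11.7% lower. Against the other TFH clusters 3 were higher and 1 was lower, beside 1.43% and 3.46% of all genes. *Slamf6*, a homophilic receptor of T-B contacts, was higher by 0.35 ± 0.04, *Cd28* by 0.25 ± 0.04 and the IL-6 receptor gene *Il6ra* by 0.22 ± 0.04. *Il21r* differed by -0.19 ± 0.02 and *Sh2d1a*, the SLAM adaptor SAP, by -0.27 ± 0.11, and activated cells had the lowest level of all 6 clusters for both. *Cxcr5*, the receptor that guides cells to the follicle, was found in 43.0% against 39.0% of cells.

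Of 19 transcription factors, 5 were higher and 4 lower than in the other cells in every mouse, beside 5.32% and 11.7% of all genes. Against the other TFH clusters 1 was higher and 3 were lower, beside 1.43% and 3.46% of all genes. *Bcl6*, which is required for TFH cells, was found in 11.3% of activated and 10.5% of other cells, and its level was higher in 7 of 10 mice with a difference of 0.01 ± 0.03. *Ascl2*, which induces *Cxcr5*, was higher than in the other cells in every mouse (0.14 ± 0.07) and lower than in Sostdc1 cells in 9 (-0.20 ± 0.09). *Batf* differed from the other cells by -0.36 ± 0.05, lower in 10 of 10 mice. *Maf*, which sustains IL-21 and IL-4 production, was lower than in TFR cells in 9 mice (-0.09 ± 0.07) and higher than in the other TFH clusters in all 10 (0.14 ± 0.08).

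Of 15 genes of circulation and memory, 7 were higher and 2 lower than in the other cells in all mice, beside 5.32% and 11.7% of all genes. Against the other TFH clusters 3 were higher and 3 lower, beside 1.43% and 3.46% of all genes, with a median difference of -0.01. *S1pr1*, the receptor for egress from lymphoid tissue, was found in 32.7% of activated, 40.1% of central memory, 23.9% of Sostdc1 and 14.9% of TFR cells, and *Ccr7*, a receptor for the T cell zone, in 14.9%, 19.4%, 9.69% and 6.77%. *Il7r*, the survival receptor of memory T cells, was found in 21.7% of activated cells and had its highest level of the 6 clusters there.

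The list of S100 proteins, galectins, annexins and cytoskeletal genes had 13 of 18 members higher than the other cells in every mouse and none lower. Of all genes described, 5.32% were higher and 11.7% lower. The median difference was 0.15, while the median over all genes described was -0.0025. Against the other TFH clusters 11 of the 18 were higher in every mouse, beside 1.43% of all genes. *Vim*, *Ahnak*, *S100a4* and *Lgals3* were higher than in Sostdc1 cells in 10 of 10 mice, and *S100a11* in 4 of 10.

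Genes that the TCR induces early after engagement were not higher in the cells named activated. None of 19 members was higher than in the other cells in every mouse and 12 were lower, with a median difference of -0.06. Of all genes described, 5.32% were higher and 11.7% lower. *Cd69*, an early activation antigen, was found in 22.9% of activated and 30.5% of other cells, and *Nr4a1*, a reporter gene of TCR signal strength, in 10.6% and 14%. Against the other TFH clusters 2 members were lower and 1 (*Nfkbia*) was higher in every mouse, beside 3.46% and 1.43% of all genes. Components of the TCR complex and its signalling had 10 of 20 members higher and 3 lower than the other cells in all mice, beside 5.32% and 11.7% of all genes. Regulatory T cell genes were lower for 21 of 22 members, as were 11 of 20 interferon-stimulated and 9 of 17 effector and cytotoxic genes. So were 7 of 16 glycolytic enzymes, 5 of 15 heat shock genes and 11 of 19 cytokine receptors, beside 11.7% of all genes. When TFR cells were left out of the comparison, 1.43% of all genes were higher and 3.46% lower in every mouse. Lower in every mouse were then 2 regulatory T cell genes, 3 cytokine receptors and no glycolytic or heat shock gene. Of the TCR components 1 was higher and 1 lower. Interferon-stimulated genes (14 of 20) and effector genes (11 of 17) were still lower for most members. The cells compared included the interferon-stimulated and effector clusters, which the authors named by genes of these lists. That direction therefore follows from the make-up of the comparison.

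Between conditions, 1 gene was called in activated cells: *Gm42031* (gene identifier ENSMUSG00000110386.1), annotated as a lincRNA, a non-coding transcript between genes, on the minus strand of chromosome 8 from 85125872 to 85132289 in GRCm38. This was 0.0101% of the 9859 genes tested with limma across 10 mice. A call needed an adjusted p (Benjamini-Hochberg) under 0.01 together with a log2 fold change beyond 0.2 in either direction, and 3.99% of genes had an unadjusted p below 0.05. Its level was 0.20, 0.39, 0.53, 0.38 and 0.49 in WT mice 11, 12, 14, 23 and 36. In 564Igi mice 13, 17, 21, 24 and 34 it was 2.09, 1.72, 2.08, 2.57 and 3.16. Every 564Igi mouse was above every WT mouse. The log2 fold change was 1.93 (SE 0.17, limma adjusted p = 3.84e-06), and the RNA was found in 31.0% (WT) and 89.5% (564Igi) of activated cells. The call rested on the variance prior, since without its trend on the level of the gene the limma adjusted p was 0.145, and with no filter on low genes it was 0.0133. No gene of the annotation overlapped *Gm42031*, and the nearest neighbour, *Zfp791*, lay 2777 bp away and was not among the genes measured. The same difference was seen outside the cluster, with 1.80 in all other cells, 1.76 in TFR cells and 2.13 in Sostdc1 cells.

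*Tnfsf8*, the marker of the cluster, was the next largest of the genes whose mice did not overlap, and it did not pass the test. Its level was 1.01, 0.89, 1.04, 1.02 and 1.02 in WT mice 11, 12, 14, 23 and 36 and 1.48, 1.08, 1.30, 1.31 and 1.22 in 564Igi mice 13, 17, 21, 24 and 34. The lowest 564Igi mouse lay just above the highest WT mouse. The log2 fold change was 0.28 (SE 0.07, limma adjusted p = 0.561), and *Tnfsf8* was found in 59.6% (WT) and 67.4% (564Igi) of activated cells. *Pdcd1* (0.21), *Icos* (0.18) and *Cd4* (0.00) had overlapping mice and limma adjusted p values of at least 0.956.

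**Figure D3:**
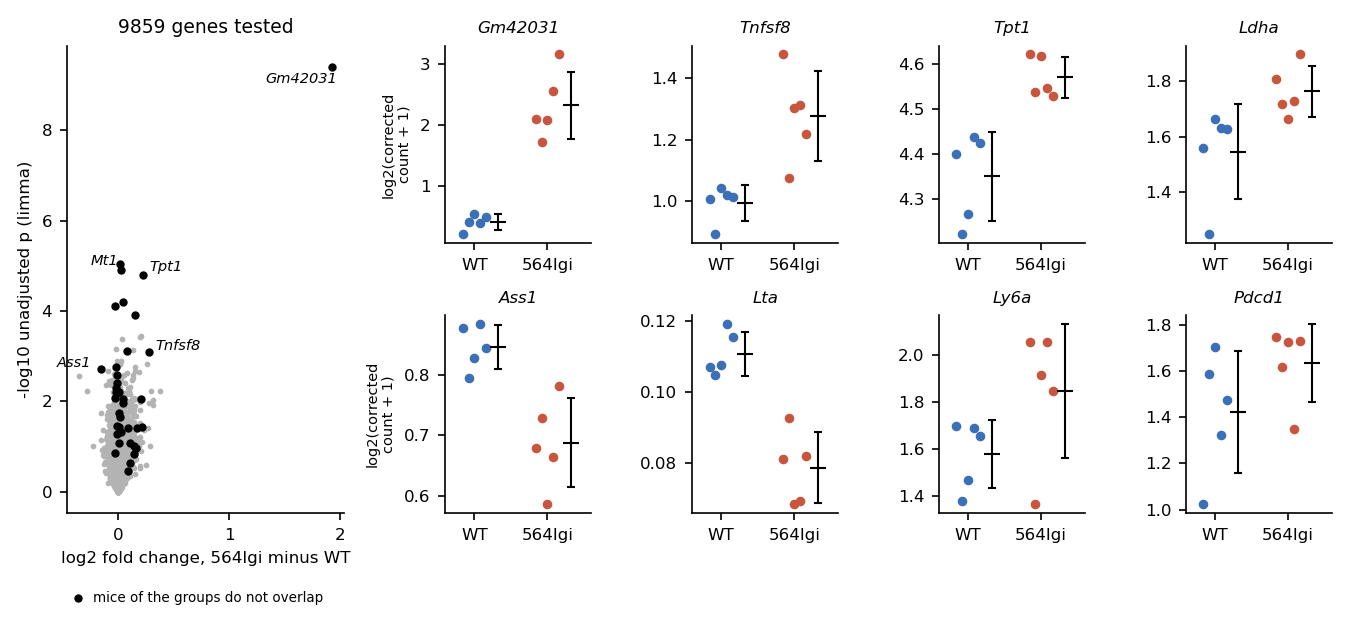
Left, log2 fold change (564Igi minus WT) and -log10 of the unadjusted limma p for the 9859 genes tested in activated cells, with genes whose mice do not overlap between conditions in black. Right, level in activated cells of each mouse for 8 genes, with the mean and SD (n = 5) beside the points, where *Gm42031* separates the conditions most and *Ly6a* and *Pdcd1* overlap.

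Without the limit on the fold change, and at an adjusted p below 0.05, *Tpt1*, *Mt1* and *Derl3* joined *Gm42031*. *Tpt1*, the translationally controlled tumour protein, is an abundant transcript whose level was 4.40, 4.22, 4.27, 4.44 and 4.43 in the WT and 4.62, 4.54, 4.62, 4.55 and 4.53 in the 564Igi mice, in the order given above. The fold change was 0.22 (SE 0.04, limma adjusted p = 0.0401). *Mt1*, a metal-binding protein, was found in 0.490% (WT) and 2.50% (564Igi) of activated cells, and *Derl3*, a protein of endoplasmic reticulum quality control, in 0.361% and 1.96%.

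The mice of the conditions did not overlap for 26 genes that were higher in 564Igi (0.264% of those tested) and 12 that were lower (0.122%). In either direction this was 0.385% of the genes tested. When mice are assigned to conditions at random, a gene separates them fully with a probability of 0.00794 (exact permutation, either direction). The share seen was not above that, so a lack of overlap does not by itself mark a gene as changed. Of the 10 largest among the higher ones, *Rpl10*, *Rpl7a*, *Eef1a1*, *Eef1b2* and *Tpt1* encode ribosomal proteins or other abundant proteins of translation, with log2 fold changes between 0.14 and 0.22. *Ldha*, lactate dehydrogenase A, was at 0.22 (limma adjusted p = 0.9997), and *Psme1* and *Psme2*, subunits of the immunoproteasome activator, at 0.17 and 0.14. The share of a cell's raw UMIs in large-subunit ribosomal protein genes was 12.1% ± 0.379 (SD, n = 5) in WT and 12.6% ± 0.770 in 564Igi activated cells, which did not exceed the spread between mice (exact permutation p = 0.270), and the authors' normalization included a regression on ribosomal content, whose effect on the corrected counts was not tested here.

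Among the 12 lower genes, *Ass1*, argininosuccinate synthase of arginine synthesis, had the largest difference, and the other 9 of the 10 largest lay between -0.03 and -0.0090. Its level was 0.88, 0.79, 0.83, 0.88 and 0.84 in the WT and 0.68, 0.73, 0.59, 0.66 and 0.78 in the 564Igi mice. The fold change was -0.16 (SE 0.04, limma adjusted p = 0.852), and it was found in 54.6% and 47.0% of cells. *Lta*, lymphotoxin α of lymphoid tissue organisation, was found in 10.0% (WT) and 7.34% (564Igi) of activated cells, with a fold change of -0.03 (limma adjusted p = 0.956). *X1810006J02Rik*, *Phf1*, *Zfp597*, *Ccdc15*, *Abcg3*, *Ifit2*, *Hsf4* and *Chst15* completed the 10 largest.

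No member of the pathway and cell type lists was called. Of all genes tested, 44.1% had a fold change above 0 and the median was -0.0012. Of 15 glycolytic enzymes, 13 had a fold change above 0, with a median of 0.14. *Aldoa*, which encodes aldolase A, had the largest value of any member at 0.37 (limma adjusted p = 0.956), followed by *Pkm*, pyruvate kinase, at 0.32 and *Gapdh* at 0.28. *Tpi1*, triosephosphate isomerase, was at 0.26 (limma adjusted p = 0.786), and it passed the call when WT mouse 14 was left out (0.33, adjusted p = 0.00946). Its levels were 0.35, 0.28, 0.78, 0.48 and 0.53 in the WT and 0.81, 0.58, 0.78, 0.65 and 0.88 in the 564Igi mice, so that WT mouse 14 lay among the 564Igi mice. Of the 9 Sostdc1 subset genes, 8 had a fold change above 0 with a median of 0.14, led by *Marcksl1* and *Gpm6b* at 0.20 each, and *Sostdc1* itself was at 0.01.

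Among inhibitory receptors, *Lag3*, a ligand of MHC class II, had the largest value at 0.32 (limma adjusted p = 0.956). It was found in 39.4%, 13.7%, 55.4%, 47.2% and 42.6% of activated cells of the WT mice and in 62.1%, 40.6%, 56.0%, 63.8% and 48.5% of those of the 564Igi mice, where WT mouse 12 was far below all others. *Ctla4* was at 0.19 (limma adjusted p = 0.862). Of 22 adhesion and migration genes, 16 had a fold change below 0, with *Thy1* at -0.35 (limma adjusted p = 0.870) and *Itgb1* at -0.23. Of 14 memory and homing genes, 12 were below 0, with *Il7r* at -0.16, *Klf2* at -0.15 and *Ccr7* at -0.10. *Id3*, an inhibitor of E proteins that is lost on full follicular differentiation, was at -0.28 (limma adjusted p = 0.956) and *Ascl2* at 0.15 (limma adjusted p = 0.825). *Il21* was at 0.08 (limma adjusted p = 0.956). Interferon-stimulated genes had a median of 0.0046 and heat shock genes a median of 0.01. None of these values passed the test. Their mice overlapped between conditions apart from *Ldha* in the glycolytic list, *Tnfsf8* in the receptor and ligand lists and *Lta* among the ligands. The interferon list leaves out *Ifit2*, which was lower without overlap (-0.01, limma adjusted p = 0.9997). It also leaves out *Tgtp1* and *Tgtp2*, which were higher without overlap (0.0062 and 0.05, limma adjusted p of at least 0.968).

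**Figure D4:**
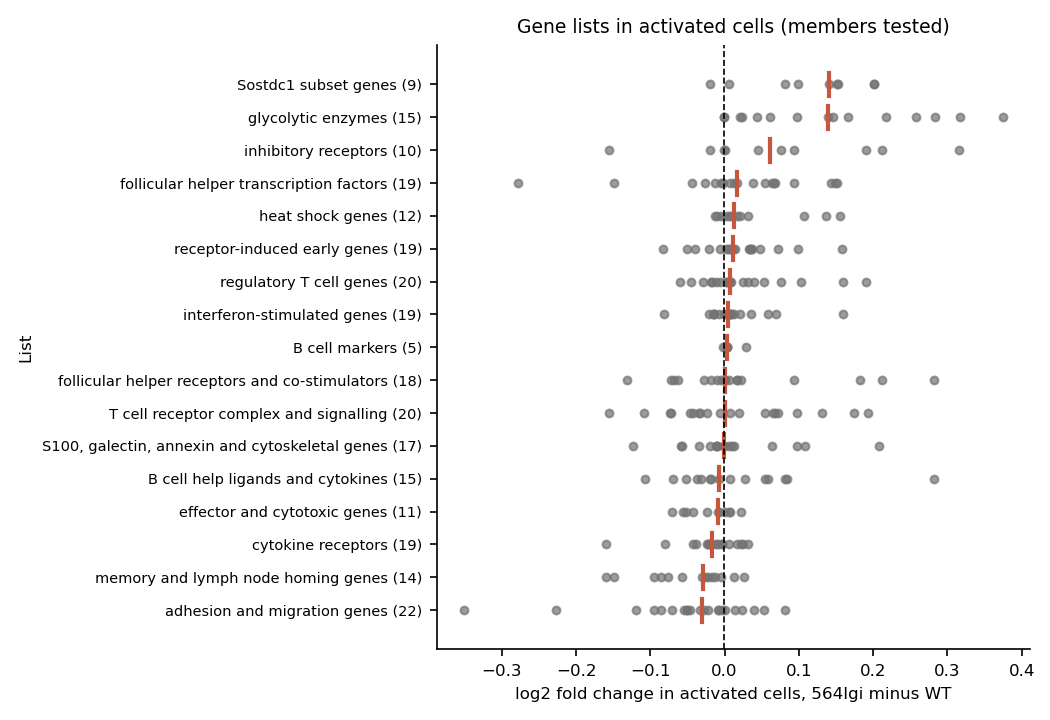
Log2 fold change in activated cells (x axis, 564Igi minus WT) of each tested member (grey points) of the gene lists (rows, number of members tested in brackets), with the median of each list in red and the median of all genes as a dashed line. Medians run from 0.14 for the Sostdc1 subset and glycolytic lists to -0.03 for the adhesion list.

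The share of activated cells in which *Foxp3* was found was 9.05% ± 2.83 (SD, n = 5) in WT and 5.35% ± 1.65 in 564Igi chimeras (exact permutation p = 0.0476, unadjusted), while in TFR cells it was 56.5% ± 3.20 and 55.6% ± 4.99. With activated cells with *Foxp3* left out, *Gm42031* was still the gene called. The summed level of the regulatory T cell list overlapped between the conditions, at 5.94 to 8.46 in WT and 6.62 to 8.62 in 564Igi mice. The summed level of 14 B cell genes ran from 0.176 to 0.313 in WT and from 0.248 to 0.420 in 564Igi mice, and that of 10 myeloid genes from 0.967 to 1.10 and from 1.01 to 1.23.

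Whether the difference between conditions was itself particular to activated cells was tested on each mouse's activated value minus the value of its other cells. No gene was called by limma (0% of 9859), 705 had an unadjusted p below 0.05, and the smallest adjusted p was 0.465. That fit lets the variance follow the mean difference. With a variance that follows the level of the gene, an alternative chosen after seeing the data, no gene was called either, 729 had an unadjusted p below 0.05 and the smallest adjusted p was 0.0755, for *Mt1*. For *Tnfsf8*, activated minus other cells was 0.55 ± 0.04 (SD, n = 5) in WT and 0.71 ± 0.11 in 564Igi mice, without overlap (exact permutation p = 0.00794, the smallest possible, and 0.0675 after adjustment over 34 named genes). Many of these 34, *Tnfsf8* among them, were picked because their mice did not overlap in activated cells. These p values are therefore not an independent test. *Gm42031*, *Eef1b2* and *Mt1* had the same exact permutation p. Over all 9859 genes the limma adjusted p for *Tnfsf8* was 0.979, and 0.376 with the variance following the level. For *Ly6a*, activated minus other cells was 0.60 ± 0.32 in WT and 0.15 ± 0.19 in 564Igi mice (exact permutation p = 0.0397, adjusted over the 34 genes 0.180). Between conditions *Ly6a* differed by 0.27 in activated cells, where the mice overlapped, by 0.29 in Sostdc1 cells, where they also overlapped, and by 0.85 in TFR cells, where they did not. For *Ass1* the difference between conditions was -0.16 in activated, -0.14 in Sostdc1 and -0.03 in TFR cells, and activated minus other cells did not pass (exact permutation p = 0.0397, adjusted 0.180).

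The TCR was read independently of the clusters, since the authors had left receptor genes out of the clustering. Clonotypes, which are cells of 1 mouse with the same pair of listed CDR3 sequences, were known for 9053 activated cells, between 470 and 1391 per mouse. The listed pair was not always an α and a β chain. On average over mice 75.4% of these cells had 1 α and 1 β chain. For 12.8% (3.95% to 21.7% per mouse) no TRBV gene was listed, and these cells were kept in the clonotype results. The TCR was found in between 50.9% (WT mouse 36) and 91.5% (564Igi mouse 13) of activated cells, and mice 36 and 34, whose libraries are numbered apart, had the lowest shares.

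The largest activated clonotypes are shown by the CDR3 bases of their α and β chains. They were taken as the 2 largest in each condition among cells with 1 α and 1 β chain. Capitals mark the first and last codon of the CDR3.
WT mouse 23, TRAV8-1 with TRAJ31, α: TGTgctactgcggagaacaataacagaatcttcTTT
WT mouse 23, TRBV10 with TRBJ1-3, β: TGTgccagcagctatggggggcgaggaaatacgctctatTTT
WT mouse 12, TRAV4D-4 with TRAJ22, α: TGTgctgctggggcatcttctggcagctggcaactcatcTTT
WT mouse 12, TRBV13-1 with TRBJ2-7, β: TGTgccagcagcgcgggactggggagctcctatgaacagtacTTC
564Igi mouse 17, TRAV8D-1 with TRAJ49, α: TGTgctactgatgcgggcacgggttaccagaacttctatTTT
564Igi mouse 17, TRBV1 with TRBJ2-7, β: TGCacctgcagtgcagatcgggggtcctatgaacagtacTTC
564Igi mouse 34, TRAV13-4-DV7 with TRAJ43, α: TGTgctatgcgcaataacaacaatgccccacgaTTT
564Igi mouse 34, TRBV5 with TRBJ2-3, β: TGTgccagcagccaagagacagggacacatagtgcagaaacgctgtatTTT

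Each of these 4 clonotypes had a single α and a single β base sequence, and each spanned several clusters. The clonotype of WT mouse 23 held 117 activated, 18 Sostdc1 and 12 TFR cells, which was 8.41% of that mouse's activated cells with a TCR. That of WT mouse 12 held 96 activated, 11 Sostdc1 and 19 TFR cells, or 13.5%. In the 564Igi chimeras the clonotype of mouse 17 held 78 activated, 9 Sostdc1 and 5 TFR cells (6.09%), and that of mouse 34 held 65, 2 and 7 (8.28%).

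Most activated cells with a TCR belonged to expanded clonotypes in every mouse. Between 65.7% (564Igi mouse 34) and 78.7% (WT mouse 12) of them were in clonotypes of 2 or more cells. The share was 72.3% ± 4.26 (SD, n = 5) in WT and 73.3% ± 5.15 in 564Igi chimeras (exact permutation p = 0.786). Clonotype size was counted over all cells of the mouse with a TCR, in any cluster or without expression data. This share therefore also depends on how many cells were recovered. The probability that 2 activated cells of a mouse shared a clonotype, which does not depend on the number of cells drawn, was 0.707%, 3.74%, 0.606%, 1.51% and 1.19% in WT mice 11, 12, 14, 23 and 36. It was 0.442%, 1.04%, 0.783%, 0.737% and 1.07% in 564Igi mice 13, 17, 21, 24 and 34. WT mouse 12 stood above all others, the remaining mice overlapped, and the conditions did not differ beyond the spread between mice (exact permutation p = 0.230).

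Compared with other clusters of the same mouse, activated cells were less clonal than Sostdc1 cells. The probability was 1.18% ± 0.952 (SD, n = 10) in activated and 1.97% ± 0.940 in Sostdc1 cells, and the difference of -0.786 percentage points was found in 8 of 10 mice (exact sign-flip permutation test over mice, two-sided, p = 0.0195, adjusted over 8 paired measures 0.0391). Against TFR cells, at 0.847% ± 0.820, activated cells were higher in 8 of 10 mice, with a mean difference of 0.336 points that did not exceed the spread between mice (exact sign-flip permutation p = 0.432). Without 564Igi mouse 17, in which TFR cells stood at 3.12%, the difference was 0.604 points (exact sign-flip p = 0.0195).

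Activated cells shared clonotypes with Sostdc1 cells more than with TFR cells. A random activated cell and a random Sostdc1 cell of the same mouse had the same clonotype with a probability of 1.11% ± 0.724 (SD, n = 10), close to the 1.18% of 2 activated cells, whereas with a random TFR cell it was 0.223% ± 0.180. The former was higher in 10 of 10 mice (exact sign-flip permutation p = 0.00195, the smallest possible, adjusted 0.0156). This comparison was chosen after seeing the data. Among activated cells with at least 1 sister in the data, between 40.5% and 70.4% per mouse had a sister in the Sostdc1 cluster and between 30.1% and 70.6% had one in the larger TFR cluster.

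TRBV genes of activated clonotypes differed from those of TFR clonotypes. Of 20 TRBV genes with a mean share of at least 1%, 2 passed at an adjusted p below 0.05 (10%), with each clonotype counted once per cluster. TRBV12-1 made up 2.93% ± 0.865 (SD, n = 10) of activated and 7.96% ± 2.28 of TFR clonotypes, and was lower in activated cells in 10 of 10 mice (exact sign-flip permutation p = 0.00195, adjusted 0.0391). TRBV20 made up 3.89% ± 1.35 and 2.71% ± 0.780, and was higher in 9 of 10 mice (exact sign-flip p = 0.00391, adjusted 0.0391). With cells counted in place of clonotypes no TRBV gene passed, and the difference for TRBV12-1 was -3.66 points (exact sign-flip adjusted p = 0.0703). TRBV12-2/13-2, a joint name for 2 genes that the listing does not separate, had the highest mean share, at 13.1% ± 8.01 of activated clonotypes. Its share was 35.3% in 564Igi mouse 17 and between 8.37% and 14.8% in the other mice. TRBV3 was used more than it in mice 14, 34 and 36, and TRBV2 in mouse 21. Between conditions no TRBV gene passed in activated clonotypes (0% of 20), and 1, TRBV13-3, had an unadjusted p below 0.05, at 4.77% in WT and 3.28% in 564Igi chimeras (exact permutation p = 0.0238, adjusted 0.476).

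**Figure D5:**
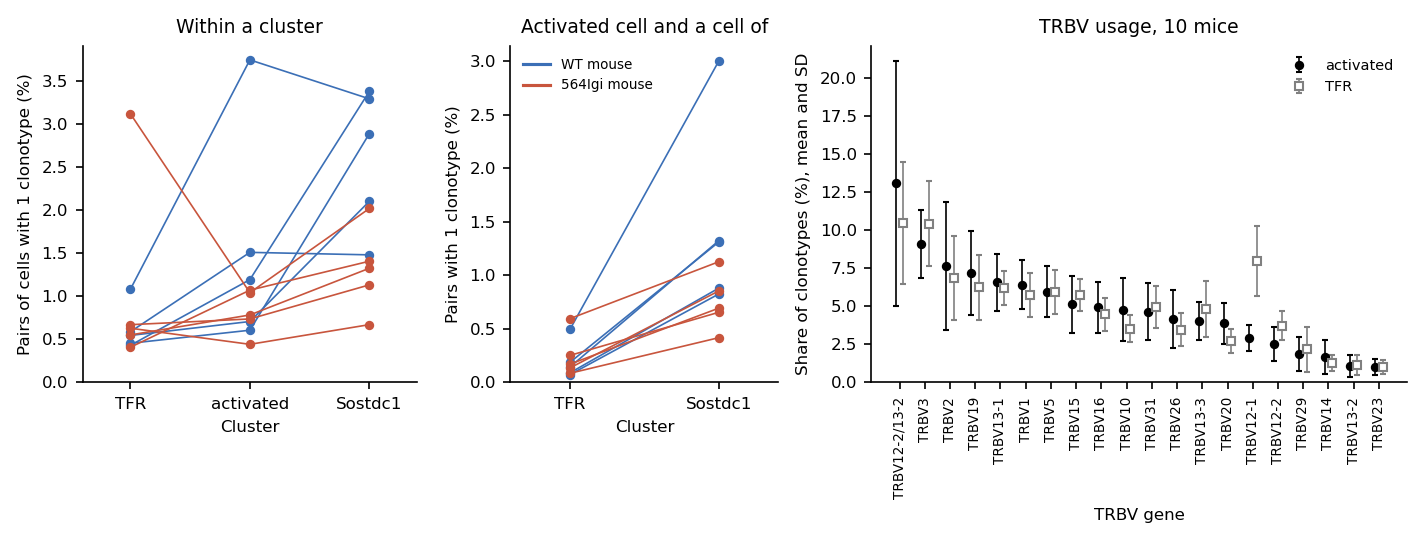
Left, percent of pairs of cells of 1 cluster with the same clonotype, and middle, percent of pairs of an activated cell with a TFR or Sostdc1 cell, where lines join the values of 1 mouse (blue WT, red 564Igi). Right, share of clonotypes per TRBV gene in activated and TFR cells (mean and SD, n = 10 mice), which differ most for TRBV12-1.

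The CDR3α of activated clonotypes was longer than that of TFR clonotypes by 0.464 bases on average (41.0 ± 0.30 against 40.6 ± 0.263, SD, n = 10), in 9 of 10 mice (exact sign-flip permutation p = 0.00781, adjusted 0.0208). The CDR3β was 41.8 ± 0.262 bases long in activated and 41.6 ± 0.355 in TFR clonotypes, a difference within the spread between mice (exact sign-flip permutation p = 0.156), and 41.9 ± 0.643 in Sostdc1 clonotypes.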

How the data were processed

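Splenic CXCR5+PD-1+ CD4+ T cells of 10 chimeras were measured by 10x 5′ gene expression and V(D)J sequencing, with 1 library of each per mouse. The authors aligned reads with Cell Ranger 4.0.0 to GRCm38 (mm10) and processed cells with Seurat 3.1.4, per the labels and the study's methods. They filtered cells by depth, by mitochondrial and ribosomal share and by cell cycle score, left out B and T cell receptor genes, and normalized each condition separately with sctransform, which could hide or create a difference between conditions for a gene. The values deposited by the authors are the natural log of the corrected UMI count plus 1, and undoing the log gave whole numbers for all 47314549 values above 0 (tolerance 1e-06). They are not raw counts, so no count model was used. The cell table deposited by the authors holds raw UMI counts, percent of UMIs in mitochondrial and ribosomal genes, scores and cluster names. Activated cells held between 1695837 and 7395415 raw UMIs per mouse, and small shares rest on few cells. Free RNA was not removed and no doublet caller was run. The TCR table lists 2 chains per cell, so a cell with more shows only part of them.

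For each mouse the mean over cells of log2(corrected count + 1) was taken in activated cells and in each comparison cluster. Genes found in at least 1% of activated cells in at least 5 mice entered limma 3.58.1 in R 4.3.3, with a trended variance prior, after the script had been checked on simulated data. A call needed an adjusted p under 0.01 and a log2 fold change beyond 0.2 in either direction. In its sequencing data the study tested cells, which are not replicates. It also followed *Gm42031* and *Ly6a* by qRT-PCR of sorted cells, and the Sca-1 protein by flow cytometry of chimeras. Mice are replicates here. Single values used exact permutation of mice (smallest p 0.00794) or exact sign flips within mice (smallest p 0.00195) in Python 3.11.15. Positions came from GENCODE vM21. Named genes were every gene called, the 10 largest in each direction among genes whose mice do not overlap, the 15 largest differences against other cells in each direction, the markers, and members of gene lists. The members and lists were chosen with earlier results of these data known. Alternatives covered the trend, filters, pseudocount, covariates, chain pairing, clonotype definition and each mouse left out.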

Additional observations from a re-analysis of the deposited data

Results flagged for a closer look

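A mouse was looked at again where it lay far from the other 4 of its condition, by Dixon's criterion. Of 90 groups of values 8 were marked, and chance marks about 1 in 20 groups, or 4.5 here. WT mouse 12 accounted for 6 of them. Its activated cells shared a clonotype with a probability of 3.74% (the next WT mouse 1.51%), a clonotype with Sostdc1 cells at 3.0% (next 1.32%) and one with TFR cells at 0.496% (next 0.188%). It had the lowest level among WT mice of *Tnfsf8* (0.89, next 1.01) and *Ldha* (1.25, next 1.56) and the highest of *Id3* (1.22, next 0.89). It also had the lowest median of UMIs per activated cell among WT mice, at 2852, and whether that has a part in these values was not tested. The level of *Phf1* was lowest in 564Igi mouse 24 at 0.14 (next 0.19), the mouse with the fewest cells and the lowest median of UMIs. The level of *Chst15*, a gene found in few cells, was highest in 564Igi mouse 17 at 0.011 (next 0.0072).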

How the results depend on the processing

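The number of genes called between conditions in activated cells was 1, and it was 0 without the trend of the variance prior, 0 with no filter on low genes, 4 at an adjusted p below 0.05 with no fold limit, and between 1 and 3 with each mouse left out. It was 3 (*Gm42031*, *Marcksl1*, *Tpi1*) without WT mouse 14. The cause of these shifts was not tested. No alternative called a gene for activated minus other cells. The count of 35 genes higher than other cells in every mouse was 12 against the other TFH clusters only, and that of 44 lower genes was 5, and 70 with log2 of the mean count plus 1. With each mouse left out they lay between 32 and 36 and between 43 and 46. TRBV calls between activated and TFR clonotypes were 4 in cells with 1 α and 1 β chain, 0 with each cell counted, and between 0 and 2 with each mouse left out (0 except without WT mouse 12 or 564Igi mouse 13). With 9 mice the smallest possible sign-flip p is 0.00391, which with 20 genes leaves a single gene unable to pass. The difference in median UMIs between conditions (99.6) lay between -138 and 299.7 with each mouse left out, and that in the share of cells in clonotypes of 2 or more (0.948 points) between -0.235 and 2.83. Activated minus TFR clonality lay between 0.0771 and 0.604 points. *Cd4* (0.00 between conditions) was at -0.0182 with pseudocount 0.1, -0.00739 with sex as a covariate, -0.0116 in cells with 1 α and 1 β chain, -0.0137 without *Foxp3* cells, and between -0.0291 and 0.0164 with each mouse left out. Of 179 comparisons of main results with an alternative, 158 were marked as unchanged. For a single value this meant the same direction and side of the threshold. For a count of genes it meant a similar count, which need not be the same genes. Mice could not be paired across conditions because the mouse numbers are not shared between them, while clusters were compared within each mouse. Depth limits rare transcripts most, and 564Igi mouse 24 had the fewest activated cells.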
